A study of Homo sapiens with 9 samples.

Results

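The comparison is between Jurkat cells at 12 h and at 5 h after activation, with 3 libraries in each group. These are the 6 activated libraries of a series of 9, and every gene that passed the count filter entered the comparison, 12036 of the 19569 genes in the count table. Jurkat Clone E6-1 is an established human leukaemic T-cell line, which the labels call a T lymphoblast. Messenger RNA was sequenced from non-activated cells (0 h, the control, 3 libraries) and from cells activated for 5 h or 12 h by plate-bound anti-CD3 (10 µg/mL) together with soluble anti-CD28 (5 µg/mL). All groups came from this cell line, so the results describe a clonal leukaemia line and not primary T cells. The design text describes 3 biological replicates per group without naming separate cultures, so each p-value reflects only how far these libraries scattered, possibly for technical reasons. Values below are CPM, counts scaled to 1000000 per library with TMM-adjusted totals.

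A T cell whose receptor and CD28 are engaged first switches on immediate-early transcription factors, which need no new protein synthesis, and then cytokine genes driven by NFAT, AP-1 and NF-κB. Many of these messages are short-lived, and the cell also makes inhibitors of the same pathways. Activated lymphocytes go on to build ribosomes and membrane lipids, for which MYC and the sterol-sensing factor SREBP2 are known regulators, and to enter the cell cycle. Jurkat cells divide without activation, so cell-cycle genes are already expressed at 0 h.

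The sequences below show letters that recur in gene lists with more falling than rising members. They also occur in members that did not fall. The first set is from 3′ UTRs (GENCODE release 29, build GRCh38), each read 5′ to 3′ on the gene's strand, with every copy of TATTTAT in capitals. This heptamer is the core of AU-rich elements, which mark unstable messages for decay. IL2 (chr4:122451695-122451724, minus strand) had 4 copies in its 3′ UTR and CSF2 (chr5:132076044-132076073, plus strand) had 7. IL3 (chr5:132063006-132063035, plus strand) had 6, and CXCL8 (chr4:73742664-73742693, plus strand) had 4. NR4A3 (chr9:99865189-99865218, plus strand) and FOS (chr14:75282060-75282089, plus strand) had 2 each. Copies may overlap in these counts.
IL2: atcaggccttcTATTTATttaaatatttaa
CSF2: gaaatcagtaaTATTTATaTATTTATattt
IL3: cccattgagacTATTTATTTATgtatgtat
CXCL8: atgtaaagtatTATTTATttgaatctacaa
NR4A3: agctttgcctgTATTTATtgcaagaccacc
FOS: tgtttttaattTATTTATtaagatggattc

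The second set is from promoters of endoplasmic reticulum (ER) chaperone genes (RefSeq, build GRCh38.p14, 250 bases before to 50 bases after the gene's start). The capitals mark the ER stress response element, which is CCAAT and CCACG with 9 bases of any kind between them, or its reverse complement, searched on both strands. HSPA5 (chr9:125241385-125241414, minus strand), HSP90B1 (chr12:103930211-103930240 and chr12:103930316-103930345, plus strand) and XBP1 (chr22:28800597-28800626, minus strand) are shown because they fell between 5 h and 12 h.
HSPA5: cttcaCCAATCGGCGGCCTCCACGacgggg
HSP90B1, upstream match: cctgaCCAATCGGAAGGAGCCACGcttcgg
HSP90B1, downstream match: gggtgCGTGGTGCGGCGCGATTGGtgggtt
XBP1: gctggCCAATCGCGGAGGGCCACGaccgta

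The third set is from promoters of ribosome biogenesis genes, from the same RefSeq table, with the palindromic E-box CACGTG in capitals. This is the site that MYC with its partner MAX is known to bind. UTP4 (chr16:69132621-69132650, plus strand), WDR43 (chr2:28894658-28894687, plus strand) and UTP20 (chr12:101280083-101280112, plus strand) are shown because they fell between 5 h and 12 h.
UTP4: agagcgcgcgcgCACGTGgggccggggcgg
WDR43: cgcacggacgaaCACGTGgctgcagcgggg
UTP20: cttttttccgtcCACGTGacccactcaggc

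The libraries held 4222258 to 9359187 counts in the 12 h group and 6552491 to 7615112 in the 5 h group. In a principal component analysis of the 6 libraries, the first component held 55.4% of the variance and separated the groups, with the 5 h libraries at -31.07 to -23.78 and the 12 h libraries at 24.83 to 28.63. On the second component (16.6%) the 12 h replicate 1, which had the lowest total, lay at 27.19 and the other libraries at -15.6 to 10.53. Base composition also differed between libraries. Across 10309 genes, a library's deviation was set against transcript GC content by Spearman correlation. It was -0.458 in the 5 h replicate 1 and 0.561 in the 12 h replicate 2. In the other 4 activated libraries it lay between -0.12 and 0.099, so the groups overlapped. The 2 outlying libraries were in different groups with opposite signs, so composition was not balanced between 5 h and 12 h. T-lymphoblast markers such as CD3E and LCK summed to 9295 to 10472 CPM at 5 h and 9049 to 10137 CPM at 12 h, and all 17 had counts. Markers of B cells summed to 101 to 133 CPM at 5 h and 149 to 174 CPM at 12 h, most of it CD79A, which was 101 ± 15.8 and 142 ± 12.5 CPM. CD22 was at 0. NK-cell, monocyte and epithelial or fibroblast marker lists each summed to at most 15.96 CPM.

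Of the genes tested, 2178 (18.1%) rose and 2162 (18%) fell from 5 h to 12 h at an adjusted p under 0.05 in edgeR's quasi-likelihood test with Benjamini-Hochberg adjustment, 36.1% in all. Most changes were small. Among the called genes, 1275 rose and 1353 fell by less than 1.5-fold. A change of at least 2-fold was called for 250 genes that rose (2.08%) and 270 that fell (2.24%), 4.32% together, and of at least 4-fold for 11 that rose and 43 that fell. The median log2 fold change over all genes tested was 0.0074, which is the background for the lists below. The 3 libraries of 12 h lay wholly above or below the 3 of 5 h in 44.9% of genes, above in 21.8% and below in 23.1%. In bulk RNA, a lower level in every cell and fewer cells with the message cannot be told apart.

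**Figure D1:**
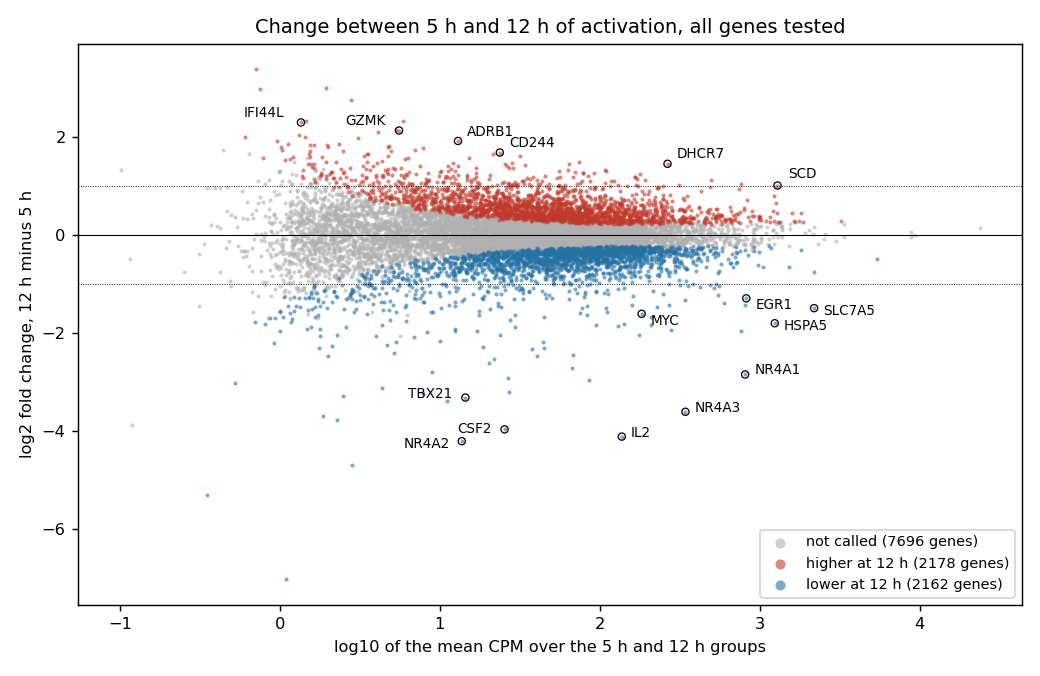
Log2 fold change from 5 h to 12 h (vertical axis) against the log10 of the mean CPM over both groups (horizontal axis) for the 12036 genes tested. Red points are the 2178 genes called higher at 12 h, blue points the 2162 called lower and grey points the rest, and dotted lines mark a 2-fold change. NR4A2, IL2, CSF2 and NR4A3 stand farthest below 0 among the labelled genes, and SLC7A5 and HSPA5 fell at high expression.

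Cytokine and chemokine messages fell, with the lowest median of the 35 gene lists. Of 25 tested members, 21 fell (84% against 18% of all genes), 1 rose, and the median log2 fold change was -1.57. IL2, the T-cell growth factor, stood at 301, 253 and 226 CPM in the 5 h libraries and at 15.4, 15.6 and 14.2 CPM at 12 h. The groups lay far apart, a 17.2-fold fall (log2 fold change -4.11 ± 0.13 SE, adjusted p = 3.17e-15), and the 0 h mean was 0.0905 ± 0.0796 CPM. CSF2, which encodes GM-CSF, measured 44.1, 50.7 and 48.6 CPM at 5 h and 3.42, 3.05 and 2.81 CPM at 12 h (log2 fold change -3.96 ± 0.17 SE), with no count at 0 h, where 3 counts would be 0.366 to 0.448 CPM in a library. IL3, its neighbour on chromosome 5 and another myeloid growth factor, went from 52.6, 45.3 and 47.6 CPM to 7.08, 5.56 and 3.7 CPM (log2 fold change -3.20 ± 0.18 SE). The 12 h libraries of these 3 genes all lay below the 5 h libraries and above the 0 h libraries.

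Effector cytokines and chemokines fell as well. IFNG, the gene of interferon gamma, measured 14.3, 17.2 and 14.9 CPM at 5 h and 2.68, 1.64 and 2.67 CPM at 12 h (log2 fold change -2.78 ± 0.26 SE). CXCL8, a neutrophil chemoattractant, fell from 14.3, 14.6 and 13.6 CPM to 1.22, 1.2 and 2.07 CPM (log2 fold change -3.22 ± 0.28 SE). CCL4, a chemokine of the CC family, fell from 45.1, 50.8 and 45.1 CPM to 6.1, 6.76 and 5.77 CPM (log2 fold change -2.91 ± 0.16 SE), and its near-identical copy CCL4L2 from 19.1, 23.4 and 18 to 3.17, 1.53 and 1.63 CPM. Counting may split reads between these copies, so the value of each is uncertain, as are those of XCL1 (log2 fold change -1.05 ± 0.11 SE) and XCL2 (log2 fold change -1.42 ± 0.11 SE). For a few members the 12 h counts were too low for a precise fold. CCL3 had 115 counts over the 5 h libraries and 4 over the 12 h libraries, a ratio of 28.2 with an exact 95% counting interval of 10.7 to 105. TNF had 87 and 6 counts (ratio 14.2, interval 6.27 to 39.8) and IL13 70 and 5 counts (ratio 13.7, interval 5.61 to 43.6). FLT3LG, a haematopoietic growth factor, was the member that rose, from 3.02 ± 0.538 to 5.7 ± 1.17 CPM (log2 fold change 0.95 ± 0.25 SE, adjusted p = 0.00583).

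Immediate-early transcription factors fell with the cytokines. Of 25 tested, 19 fell (76%), 1 rose, and the median log2 fold change was -1.06. The NR4A genes encode orphan nuclear receptors and are induced by receptor signalling. NR4A1 (chr12:52022832-52059507, plus strand) measured 1349.6, 1478 and 1451 CPM at 5 h and 173, 214 and 207 CPM at 12 h, a 7.17-fold fall (log2 fold change -2.84 ± 0.10 SE, adjusted p = 1.84e-14). NR4A3 went from 640.4, 623 and 642 CPM to 53.9, 51.8 and 51.5 CPM (log2 fold change -3.60 ± 0.09 SE), and NR4A2 from 27.2, 24.2 and 26.8 CPM to 1.71, 1.53 and 1.04 CPM (log2 fold change -4.20 ± 0.24 SE). Within each group these libraries lay close together, and no library of either group overlapped the other.

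The EGR zinc-finger factors fell as well. EGR1 measured 1202, 1166 and 1151 CPM at 5 h and 429.99, 512 and 496 CPM at 12 h (log2 fold change -1.29 ± 0.09 SE). EGR2 fell from 74.6, 71.9 and 71.3 CPM to 17.3, 14.1 and 17.5 CPM (log2 fold change -2.17 ± 0.12 SE) and EGR3 from 134, 164 and 155 CPM to 19.3, 19.4 and 19.8 CPM (log2 fold change -2.95 ± 0.12 SE). The 12 h mean of EGR1, 479 ± 43.4 CPM, was still far above its 0 h mean of 13.6 ± 1.31 CPM. Of the AP-1 subunits, FOSL2 (log2 fold change -2.60 ± 0.18 SE), FOS (log2 fold change -1.06 ± 0.18 SE) and JUN (log2 fold change -0.82 ± 0.19 SE) fell. KLF6, a zinc-finger factor, was the member that rose, at 15.5, 18.8 and 18.8 CPM at 5 h and 36.6, 31.1 and 34.1 CPM at 12 h (log2 fold change 0.93 ± 0.13 SE, adjusted p = 2.02e-05).

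**Figure D2:**
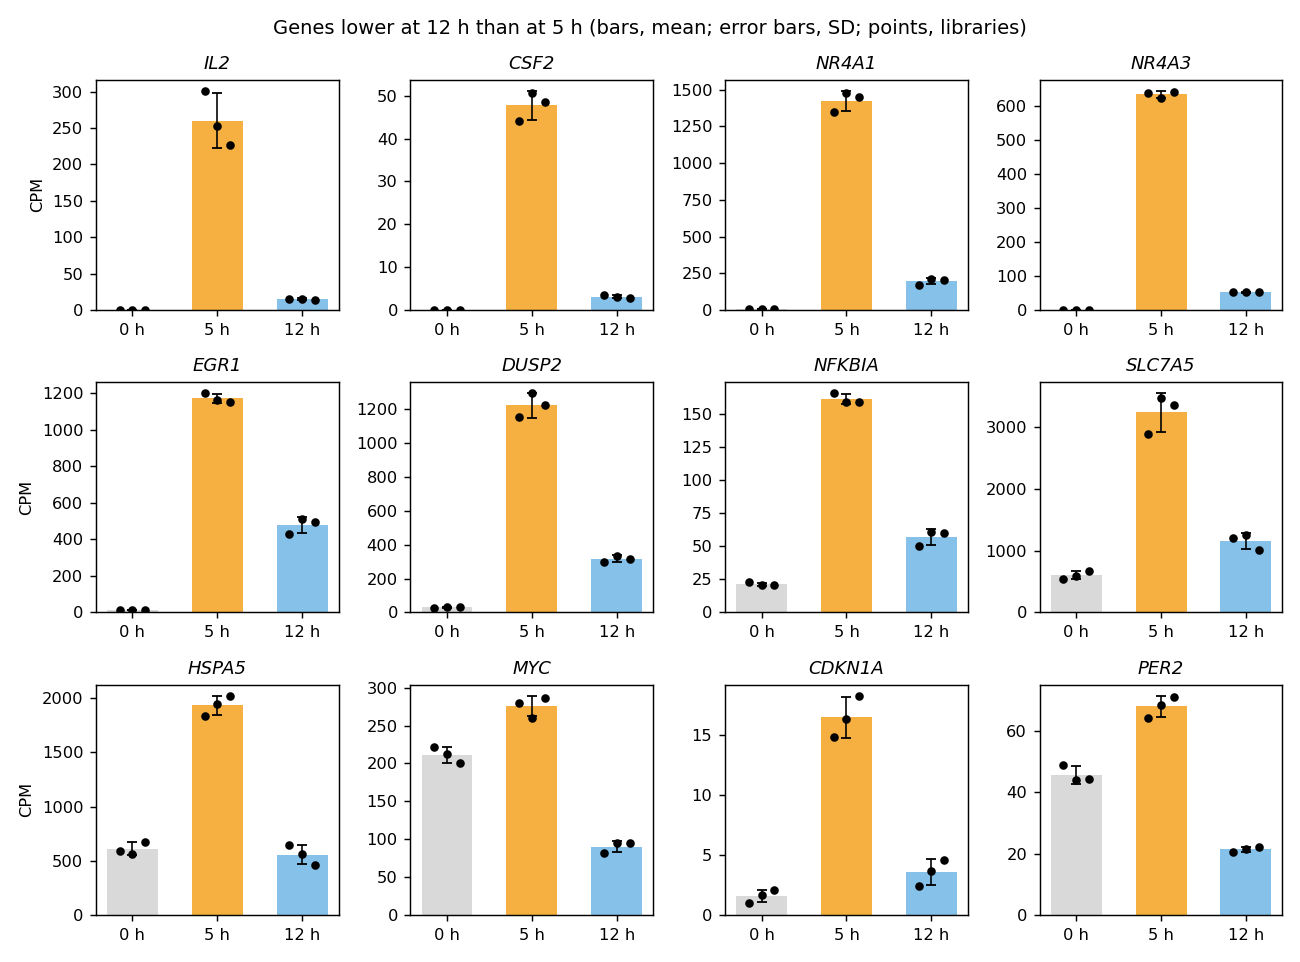
CPM of 12 genes that were lower at 12 h than at 5 h, by time of activation. Bars are group means, error bars the SD over 3 libraries and points the libraries. IL2, CSF2 and NR4A3 were near 0 in the 0 h libraries, while MYC and PER2 at 12 h lay below their 0 h libraries as well.

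NF-κB genes and the negative regulators of receptor signalling also fell. Among 21 tested NF-κB subunits, inhibitors and targets, 13 fell (61.9%), 1 rose, and the median log2 fold change was -0.55. NFKBIA encodes the inhibitor IκBα and is itself an NF-κB target, and it went from 166, 159 and 159 CPM to 50.3, 61.1 and 59.7 CPM (log2 fold change -1.49 ± 0.09 SE). NFKBID, a nuclear IκB protein, fell from 69.3, 78.7 and 76.5 CPM to 12.9, 17.3 and 14.1 CPM (log2 fold change -2.31 ± 0.14 SE). The subunit gene REL fell from 1335, 1046 and 1179.8 CPM to 497, 369 and 464 CPM (log2 fold change -1.42 ± 0.12 SE), and its 12 h libraries stayed above the 0 h mean of 196 ± 22.6 CPM. TNFAIP8 was the member that rose (log2 fold change 0.83 ± 0.09 SE, adjusted p = 4.16e-07).

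Among 30 tested negative-feedback regulators, 12 fell (40% against 18% of all genes) and 2 rose, with a median of -0.43. The 2 that rose were PAG1 (log2 fold change 0.56 ± 0.11 SE) and DGKZ (log2 fold change 0.30 ± 0.11 SE), and DGKZ lost its call without the 5 h replicate 1 or the 12 h replicate 2, which leaves 1. DUSP2, a nuclear phosphatase of ERK, measured 1151, 1295 and 1222 CPM at 5 h and 295, 336 and 318 CPM at 12 h (log2 fold change -1.95 ± 0.10 SE, adjusted p = 6.94e-12). SOCS1, an inhibitor of cytokine receptor kinases, fell from 34.6, 41.6 and 38.2 CPM to 10.01, 8.83 and 9.33 CPM (log2 fold change -2.04 ± 0.14 SE). The MAP-kinase phosphatase genes DUSP4 (log2 fold change -1.83 ± 0.11 SE) and DUSP5 (log2 fold change -1.81 ± 0.10 SE) fell as well.

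Activation receptors were called lower more often than higher. Of 21 tested activation and costimulatory receptors, 10 fell (47.6% against 18% of all genes) and 2 rose, with a median of -0.20. ICOS, a costimulatory receptor of the CD28 family, fell from 47.4, 41.9 and 48.9 CPM to 14.4, 12 and 12 CPM (log2 fold change -1.87 ± 0.15 SE), and CRTAM from 201, 204 and 208 CPM to 55.6, 62.6 and 50.3 CPM (log2 fold change -1.86 ± 0.10 SE). CD69, an early activation marker, measured 885, 902 and 809.5 CPM at 5 h and 373, 311 and 310.1 CPM at 12 h (log2 fold change -1.39 ± 0.10 SE), above its 0 h mean of 73.3 ± 7.76 CPM. By contrast IL2RA, the high-affinity IL-2 receptor chain CD25, measured 346, 331 and 339.7 CPM at 5 h and 281, 329 and 272 CPM at 12 h. Although its 12 h libraries all lay below the 5 h libraries, the difference (log2 fold change -0.20 ± 0.09 SE) did not pass the test (adjusted p = 0.0923 in edgeR), while it did without the 12 h replicate 2 (adjusted p = 0.0275). CD27, a costimulatory receptor of the TNF receptor family, rose from 78.5, 105 and 96.7 CPM to 167, 192 and 159.6 CPM (log2 fold change 0.89 ± 0.12 SE). CD38 was called with a small estimate (log2 fold change 0.27 ± 0.10 SE) and lost its call without any of the 5 h libraries, the 12 h replicate 1, or the 0 h replicates 2 or 3, which leaves 1 riser.

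The 11 tested genes of inhibitory receptors and exhaustion held 3 that rose and 3 that fell (27.3% each, against 18.1% and 18% of all genes), and the median was 0.11. CD244, an inhibitory or activating receptor of the SLAM family, measured 10.8, 12.4 and 10.2 CPM at 5 h and 41.7, 33 and 34.4 CPM at 12 h (log2 fold change 1.68 ± 0.15 SE, adjusted p = 4.88e-08). PDCD1, which encodes PD-1, fell from 19.8, 39.3 and 33.2 CPM to 6.83, 5.56 and 6.81 CPM (log2 fold change -2.29 ± 0.22 SE, adjusted p = 1.88e-07). At 0 h their means were 26.9 ± 3.95 CPM and 2.47 ± 0.6 CPM. The remaining calls were LAIR1 (log2 fold change 0.63 ± 0.11 SE) and TOX (log2 fold change 0.28 ± 0.09 SE), higher, and TOX2 (log2 fold change -0.84 ± 0.28 SE) and VSIR (log2 fold change -0.49 ± 0.14 SE), lower. TOX lost its call without the 5 h replicate 3 or the 12 h replicate 3, TOX2 without the 5 h replicate 1 or the 12 h replicate 2, and VSIR without the 5 h replicate 2.

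Among cytotoxic and effector genes, 4 of 17 rose (23.5%) and 6 fell (35.3%), against 18.1% and 18% of all genes. TBX21, the T-helper 1 factor T-bet, fell from 24.5, 28.5 and 26.5 CPM to 1.22, 3.16 and 2.96 CPM (log2 fold change -3.31 ± 0.23 SE). GZMK, a granzyme, rose from 1.5, 1.49 and 3.13 CPM to 11, 7.41 and 8.88 CPM (log2 fold change 2.13 ± 0.31 SE, adjusted p = 2.78e-05) at low CPM. GZMA, another granzyme, rose from 132, 152 and 130.2 CPM to 249, 234 and 209 CPM (log2 fold change 0.74 ± 0.11 SE). RORA, a nuclear receptor, rose from 40.1, 33 and 36.7 CPM to 79.3, 66.7 and 79.2 CPM (log2 fold change 1.03 ± 0.11 SE).

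Of 38 tested genes that form the antigen receptor or act directly below it, 6 rose (15.8%) and 5 fell (13.2%), near the 18.1% and 18% of all genes. The number that rose was 10 with the GC offsets and 8 without the 12 h replicates 1 or 2. CD3E measured 842, 964 and 830.2 CPM at 5 h and 989, 983 and 919.8 CPM at 12 h, and the zeta chain gene CD247 measured 288 ± 35.4 and 283 ± 30.6 CPM, and neither passed the test (adjusted p = 0.271 and adjusted p = 0.914 in edgeR). The adaptor gene GRAP2 rose from 40.1, 40.3 and 45.3 CPM to 60.3, 75.9 and 74.2 CPM (log2 fold change 0.76 ± 0.11 SE). NFATC1, an NFAT transcription factor that NFAT signalling induces, fell from 108, 119 and 113 CPM to 46.1, 49.6 and 45.6 CPM (log2 fold change -1.26 ± 0.10 SE). Its 0 h mean was 41.3 ± 5.08 CPM.

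MYC fell, and MXD1, MXD3 and MXD4 rose. MYC, the growth-promoting transcription factor, measured 280.3, 261 and 287 CPM at 5 h and 82.2, 94.4 and 94.3 CPM at 12 h (log2 fold change -1.60 ± 0.09 SE, adjusted p = 5.31e-11). Its 12 h libraries lay below the 0 h mean of 211 ± 10.8 CPM too. The MXD proteins compete with MYC for MAX. MXD3 rose from 8.12, 10.7 and 9.4 CPM to 24.4, 26.7 and 21.6 CPM (log2 fold change 1.37 ± 0.18 SE) and MXD4 from 12.2, 14.5 and 16.3 CPM to 22.2, 27.1 and 28.9 CPM (log2 fold change 0.88 ± 0.15 SE). MXD1 (log2 fold change 0.62 ± 0.16 SE) rose as well. MAX, the partner of both, was the fourth member that rose (log2 fold change 0.50 ± 0.09 SE). MNT and MXI1, which also compete with MYC, were not called. In all, 4 of 11 members of the MYC network rose (36.4%) and 3 fell (27.3%), against 18.1% and 18% of all genes. Of those that fell, MYCN lost its call without any of 5 libraries (each 5 h library, the 12 h replicate 1 or the 12 h replicate 2), and MGA without the 0 h replicate 2, the 5 h replicates 1 or 2, or the 12 h replicate 2. Without the 5 h replicates 1 or 2, or the 12 h replicate 2, 1 member fell.

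Inhibitors of cyclin-dependent kinases moved in both directions. CDKN1A, which encodes p21, measured 14.9, 16.4 and 18.3 CPM at 5 h and 2.44, 3.71 and 4.59 CPM at 12 h (log2 fold change -2.15 ± 0.23 SE, adjusted p = 6.66e-07), with a 0 h mean of 1.58 ± 0.528 CPM. CDKN1B, which encodes p27, rose from 47.1, 59.1 and 53.7 CPM to 89.8, 96.3 and 113 CPM (log2 fold change 0.90 ± 0.11 SE, adjusted p = 2.22e-06). The INK4 family members CDKN2C (log2 fold change 0.89 ± 0.14 SE) and CDKN2D (log2 fold change 1.24 ± 0.22 SE) rose too. CDKN1C was called higher too, but was at most at 1.92 CPM, and lost its call without the 5 h replicates 1 or 3 or the 12 h replicate 3.

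Ribosome biogenesis genes fell while the ribosomal protein genes rose. The biogenesis list holds RNA polymerase I subunits and the factors that process ribosomal RNA, and 41 of its 55 tested members fell (74.5%), 2 rose, and the median log2 fold change was -0.53. POLR1B (chr2:112541915-112577150, plus strand), the second-largest subunit of RNA polymerase I, measured 164, 137 and 145 CPM at 5 h and 63.4, 66.8 and 66 CPM at 12 h (log2 fold change -1.18 ± 0.11 SE, adjusted p = 7.71e-08). DDX21, a nucleolar RNA helicase, fell from 748, 646 and 741 CPM to 327, 337 and 399 CPM (log2 fold change -1.005 ± 0.10 SE). UTP4, whose E-box is printed above, fell from 110.4, 102 and 108 CPM to 56.4, 60.3 and 56 CPM (log2 fold change -0.89 ± 0.09 SE). WDR43 (log2 fold change -0.83 ± 0.09 SE) and UTP20 (log2 fold change -0.65 ± 0.10 SE) also fell. The 2 that rose were TAF1D (log2 fold change 0.61 ± 0.09 SE) and NHP2 (log2 fold change 0.31 ± 0.12 SE, adjusted p = 0.049), and NHP2 lost its call without the 0 h replicate 3, the 5 h replicates 1 or 3, or the 12 h replicates 2 or 3, which leaves 1. The nucleolar proteins NPM1 (log2 fold change -0.22 ± 0.10 SE) and NCL (log2 fold change -0.30 ± 0.13 SE) were not called, with adjusted p = 0.0991 and adjusted p = 0.0798, but both passed without the 12 h replicate 3 (adjusted p = 0.0163 and 0.0103).

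The E-box CACGTG lay in the promoter window of 15 of the 45 biogenesis genes with a promoter in the table (33.3%), against 10.2% of the promoters of 9775 tested genes. Of these 15 genes, 12 fell and 3 were not called, beside 41 of all 55 tested members that fell (74.5%). Whether the fall goes with the E-box was not tested. The same letters were in 4.76% of 63 ribosomal protein promoters and in 11.9% of 42 promoters of mitosis genes. Other lists ranged from 0% of 18 cytokine promoters to 30% of 10 MYC network promoters. Shares were 25% of 24 for nucleotide synthesis, 21.1% of 38 for translation factors and 20.8% of 24 for cholesterol synthesis and uptake. Most members of the cholesterol list rose, so the letters are not particular to lists that fell. A match describes the letters in the window and not binding.

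All 79 tested genes of cytosolic ribosomal proteins, the subunits of the ribosome, had a positive log2 fold change, with a median of 0.30, and 49 rose (62%) in edgeR. The changes were small, 0.74 at most. RPL36 measured 155, 207 and 196 CPM at 5 h and 221, 381 and 325 CPM at 12 h (log2 fold change 0.74 ± 0.16 SE, adjusted p = 0.00111). RPS9 went from 198, 246 and 235 CPM to 256, 379 and 374 CPM (log2 fold change 0.58 ± 0.12 SE). Their libraries did not overlap, but in RPL35 the lowest 12 h library lay within the 5 h range (189, 231 and 217 against 228, 366 and 350.05 CPM). Ribosomal protein genes took 4.71%, 5.09% and 4.58% of all counts in the 5 h libraries and 5.24%, 6.44% and 5.96% at 12 h, against 4.41% ± 0.165 (SD, n = 3) at 0 h. The difference of 1.09 percentage points had a two-sided exact permutation p = 0.1, the smallest that 3 libraries against 3 allow. The count of called genes depended on single libraries. It was 27 without the 5 h replicate 3 and 26 without the 12 h replicate 2, and 62 with library offsets fitted on GC content, an alternative added after the data were seen.

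Of 48 tested translation factors, 14 fell (29.2%) and 8 rose (16.7%), against 18% and 18.1% of all genes, and the median was -0.11. ETF1, the release factor that ends translation, fell from 318, 288 and 287 CPM to 144, 125 and 138 CPM (log2 fold change -1.14 ± 0.09 SE). The initiation factor gene EIF5 fell from 494, 429 and 453 CPM to 242, 223 and 251 CPM (log2 fold change -0.95 ± 0.09 SE). The elongation factor gene EEF2 was called higher (log2 fold change 0.44 ± 0.12 SE), but its libraries overlapped, at 1320.3, 1557 and 1733 CPM and 1654, 2374 and 2227 CPM, and the call was lost without the 5 h replicate 1 or the 12 h replicate 2. The number that rose was 3 without the 12 h replicate 2, 4 without the 5 h replicate 1 and 5 without the 5 h replicate 2 or the 12 h replicate 3.

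Mitosis genes rose and DNA replication genes fell. Of 50 tested mitosis genes, 33 rose (66%) and the median was 0.42. In the lower direction 0 were called by edgeR, DESeq2 or limma, and 0 had an unadjusted p under 0.05. CENPA (chr2:26764289-26801067, plus strand), the centromeric histone H3 variant, measured 13.5, 12.7 and 13.8 CPM at 5 h and 26.6, 22.5 and 29.9 CPM at 12 h (log2 fold change 0.97 ± 0.15 SE, adjusted p = 5.26e-05). INCENP, a subunit of the chromosomal passenger complex, rose from 52.3, 59.7 and 66.7 CPM to 97.4, 131 and 115 CPM (log2 fold change 0.96 ± 0.11 SE). PRC1, which bundles microtubules in the spindle midzone, went from 108, 102 and 103 CPM to 181, 166 and 164 CPM (log2 fold change 0.70 ± 0.08 SE). MKI67, the proliferation marker Ki-67, measured 543, 543 and 561 CPM at 5 h and 745, 783 and 787 CPM at 12 h (log2 fold change 0.49 ± 0.08 SE), and its 0 h mean was 763 ± 21.1 CPM. PLK1, a mitotic kinase, rose (log2 fold change 0.64 ± 0.10 SE). The cyclin gene CCNB1 was not called (log2 fold change 0.10 ± 0.09 SE, adjusted p = 0.372), and its libraries overlapped.

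Among 50 tested DNA replication genes, 23 fell (46% against 18% of all genes), 5 rose, and the median was -0.26. POLE2, a subunit of DNA polymerase epsilon, fell from 26.5, 22 and 21.2 CPM to 13.2, 11.2 and 11.7 CPM (log2 fold change -0.96 ± 0.14 SE, adjusted p = 2.72e-05). PCNA, the sliding clamp, measured 202, 180.3 and 172 CPM at 5 h and 129, 123 and 137 CPM at 12 h (log2 fold change -0.51 ± 0.09 SE), and its 0 h mean was 325 ± 27.1 CPM. The clamp-loader genes RFC3 (log2 fold change -0.64 ± 0.11 SE) and RFC5 (log2 fold change -0.58 ± 0.09 SE) and the helicase gene MCM2 (log2 fold change -0.46 ± 0.10 SE) fell. Other helicase genes, MCM4, MCM6 and MCM7, were also among those that fell. CDT1, which licenses origins, rose from 34.1, 39.6 and 43.7 CPM to 57.1, 68.6 and 69.7 CPM (log2 fold change 0.75 ± 0.12 SE). E2F2 (log2 fold change 0.69 ± 0.11 SE) and CCND3 (log2 fold change 0.62 ± 0.09 SE), an activating E2F and a D-type cyclin, rose as well, and the other 2 were E2F1 and ORC1. E2F1 lost its call without the 0 h replicates 2 or 3, the 5 h replicates 1 or 3, or the 12 h replicates 2 or 3. Cell-cycle phase was not measured in these cells.

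**Figure D3:**
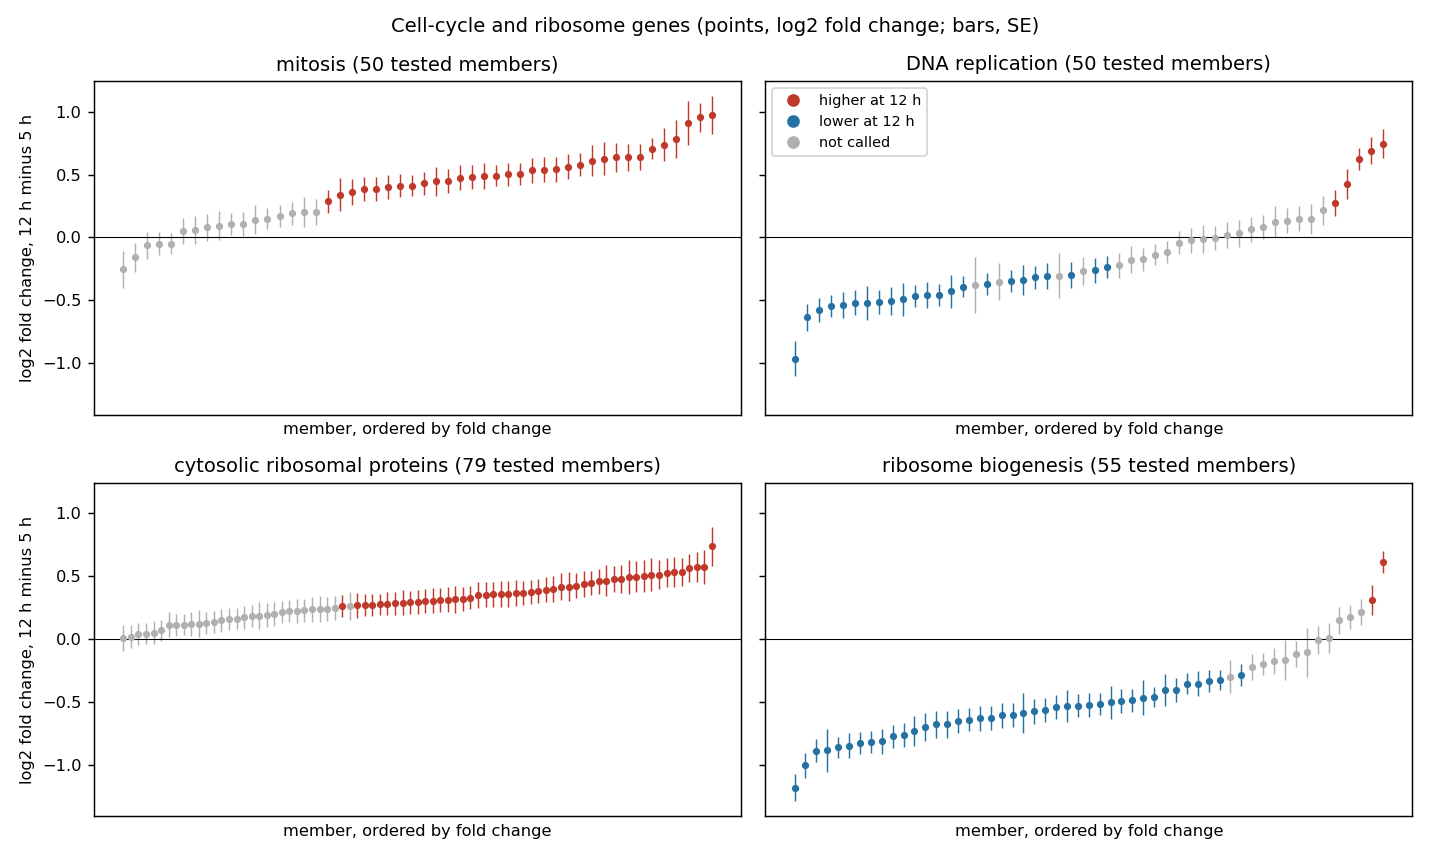
Log2 fold change from 5 h to 12 h (vertical axis) of each tested member of 4 gene lists, ordered by its value along the horizontal axis. Points are fold changes, bars the SE, and colours show genes called higher (red), lower (blue) or not called (grey). The mitosis and ribosomal protein lists hold called genes on the upper side only, 33 of 50 and 49 of 79, and the biogenesis list has 41 of 55 on the lower side.

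The letters CCAAT, the site of the factor NF-Y, were in 81% of 42 promoter windows of mitosis genes (both strands searched) and in 57.1% of 42 of DNA replication genes, against 37.1% of all 9775. In windows of ribosomal protein genes the share was 31.7% of 63, and in those of NF-κB genes 5.26% of 19. It was 66.7% of 24 for cholesterol synthesis and uptake. For the unfolded protein response and ER folding, where more genes fell than rose, it was 78.1% of 32. A high share was thus not particular to cell-cycle lists or to 1 direction. The ER stress response element above contains these letters. Another 3 motifs were searched on both strands in the 18 cytokine and 21 immediate-early promoters. The AP-1 site TGANTCA was in 2 and 1 of them (4.37% of all 9775), the EGR site GCGTGGGCG in 1 and 1 (1.32%) and the cAMP response element TGACGTCA in 0 and 1 (3.38%).

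Cholesterol synthesis genes were the list that rose most. Of 31 tested genes of cholesterol synthesis and uptake, 24 rose (77.4%), 1 fell, and the median log2 fold change was 0.94. The early steps take acetyl-CoA to mevalonate. HMGCS1 (chr5:43289395-43313512, minus strand), the synthase that makes HMG-CoA, measured 332, 292 and 309.9 CPM at 5 h and 728, 638 and 673 CPM at 12 h (log2 fold change 1.13 ± 0.09 SE, adjusted p = 2.27e-08). All 12 h libraries lay above the 5 h libraries.

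Of the genes for the steps after mevalonate, MVK and MVD rose, while PMVK, the kinase between them, was not called (log2 fold change 0.23 ± 0.20 SE, adjusted p = 0.414). MVK, the mevalonate kinase, went from 5.41, 9.19 and 8.3 CPM to 23.4, 24.1 and 21 CPM (log2 fold change 1.57 ± 0.18 SE) and MVD, the decarboxylase, from 9.77, 18.5 and 16.9 CPM to 36.4, 45.1 and 44 CPM (log2 fold change 1.48 ± 0.18 SE). DHCR7 (chr11:71428193-71452868, minus strand), which makes cholesterol from its last precursor, measured 126, 156 and 143 CPM at 5 h and 422, 409.5 and 337 CPM at 12 h, a 2.74-fold rise (log2 fold change 1.45 ± 0.10 SE, adjusted p = 1.66e-09). Its 0 h mean was 125 ± 5.46 CPM, close to the 5 h libraries. Of the regulators, INSIG1, which retains the SREBP complex in the ER and is an SREBP target, rose from 504, 515 and 482 CPM to 1132, 999.97 and 955 CPM (log2 fold change 1.04 ± 0.09 SE). SREBF2, which encodes SREBP2, rose by a smaller estimate (log2 fold change 0.50 ± 0.11 SE, adjusted p = 0.00138). STARD4, a sterol transfer protein, was the member that fell, from 214, 197 and 220.1 CPM to 156, 133 and 146 CPM (log2 fold change -0.54 ± 0.09 SE). The liver X receptor targets ABCA1 (log2 fold change -0.62 ± 0.47 SE, adjusted p = 0.315), which exports cholesterol, and MYLIP (log2 fold change -0.35 ± 0.23 SE, adjusted p = 0.257) were not called. ABCG1, another exporter and target of that receptor, and SREBF1 were among the 24 members that rose.

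Fatty acid genes moved the same way. Of 17 tested, 9 rose (52.9%), 1 fell, and the median was 0.30. SCD, the desaturase that makes oleic acid, measured 812, 892 and 871 CPM at 5 h and 1979, 1696 and 1517 CPM at 12 h (log2 fold change 1.01 ± 0.10 SE, adjusted p = 1.88e-07), and its 0 h mean was 1238 ± 57 CPM. The elongase gene ELOVL6 rose from 12.5, 10.9 and 11.4 CPM to 27.1, 21.5 and 23 CPM (log2 fold change 1.02 ± 0.14 SE). FASN, the fatty acid synthase, rose by a smaller estimate (log2 fold change 0.55 ± 0.09 SE). ACSL4, which loads polyunsaturated fatty acids onto coenzyme A, fell (log2 fold change -0.66 ± 0.09 SE). Outside the list, VLDLR, a lipoprotein receptor, rose from 37.1, 32.3 and 33.7 CPM to 115, 88.9 and 79.8 CPM (log2 fold change 1.45 ± 0.13 SE). PCYT2, an enzyme of phosphatidylethanolamine synthesis, rose from 8.27, 9.73 and 13.5 CPM to 30.5, 34.9 and 32.1 CPM (log2 fold change 1.64 ± 0.15 SE). A search for the sterol element TCACNCCAC, on both strands, found it in 1 of 24 cholesterol promoters, that of SREBF2, and in 1.09% of all promoters, so these letters are absent from most of the windows.

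**Figure D4:**
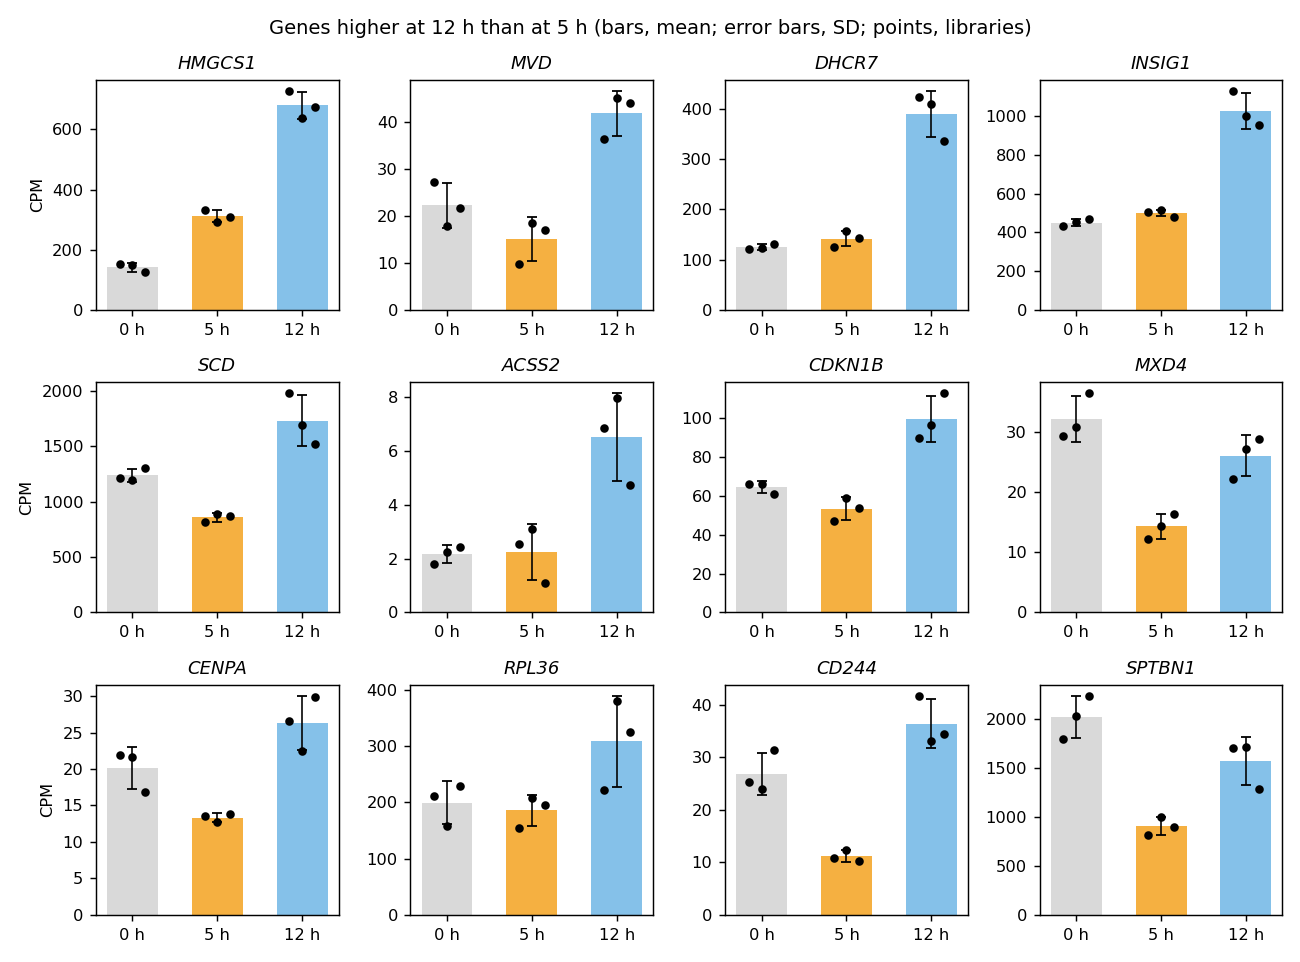
CPM of 12 genes that were higher at 12 h than at 5 h, by time of activation. Bars are group means, error bars the SD over 3 libraries and points the libraries. DHCR7 and INSIG1 at 5 h were near their 0 h level and higher at 12 h, while SPTBN1, SCD and CD244 at 5 h lay below their 0 h libraries.

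More ER chaperone and folding genes fell than rose. Of 35 tested genes of the unfolded protein response and ER folding, 14 fell (40% against 18% of all genes) and 1 rose. The median was -0.17. The other 20 were not called, among them PDIA4, P4HB, HYOU1 and DNAJB9, whose estimates were above 0. HSPA5 (chr9:125234853-125241330, minus strand), the ER chaperone BiP, measured 1838, 1945 and 2016 CPM at 5 h and 648, 560.01 and 464 CPM at 12 h, a 3.47-fold fall (log2 fold change -1.80 ± 0.11 SE, adjusted p = 2.36e-10). Its 0 h mean was 611 ± 57.3 CPM. HSP90B1, the ER form of HSP90, went from 2785, 2624 and 2826 CPM to 1855, 1617 and 1432 CPM (log2 fold change -0.75 ± 0.10 SE), and stayed above its 0 h mean of 760.5 ± 62.5 CPM. The co-chaperones DNAJC3 (log2 fold change -0.87 ± 0.10 SE) and DNAJB11 (log2 fold change -0.81 ± 0.10 SE) and the transcription factor gene XBP1 (log2 fold change -0.62 ± 0.11 SE) fell. The riser was ERO1A, an ER oxidase (log2 fold change 0.27 ± 0.09 SE, adjusted p = 0.0233), and its call was lost without the 5 h replicates 1 or 3 or the 12 h replicate 1.

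The ER stress response element printed above was in 7 of 32 promoters of this list (21.9%) and in 0.143% of all 9775. Of these 7 genes, 4 fell and 3 were not called, beside 14 of all 35 tested members that fell (40%). Whether the fall goes with the element was not tested. Those that fell were HSPA5, HSP90B1, XBP1 and CALR, and CALR lost its call without the 5 h replicates 2 or 3 or the 12 h replicate 3. Those not called were CANX (log2 fold change -0.18 ± 0.11 SE), CRELD2 (log2 fold change -0.37 ± 0.15 SE) and ERO1B (log2 fold change -0.01 ± 0.13 SE). CANX passed without the 12 h replicate 1, and CRELD2 without the 5 h replicate 1 or the 12 h replicate 3.

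SLC7A5, the leucine transporter LAT1, had the largest difference in CPM (not corrected for gene length) of the genes that fell. It measured 2881, 3467 and 3356 CPM at 5 h and 1201, 1252 and 1004 CPM at 12 h (log2 fold change -1.49 ± 0.11 SE, adjusted p = 2.95e-09), and its 0 h mean was 602 ± 64.7 CPM. Its partner SLC3A2, the heavy chain of the transporter, moved the other way, from 375, 431 and 401 CPM to 641, 625 and 477 CPM (log2 fold change 0.53 ± 0.11 SE, adjusted p = 0.000714). Of 14 tested amino-acid transporters 3 fell (21.4%, near the 18% of all genes) and 1 rose, and 5 fell without the 12 h replicate 1. Of 35 tested aminoacyl-tRNA synthetases and ATF4 targets, 11 rose (31.4%) and 6 fell (17.1%), against 18.1% and 18% of all genes. The median was 0.16. The number that fell was 3 without any of the 5 h libraries and 2 without the 12 h replicate 2. ACTB, the cytoskeletal actin, fell from 6208, 6414 and 6405 CPM to 3709, 4845 and 5044 CPM (log2 fold change -0.48 ± 0.11 SE, adjusted p = 0.00197). SPTBN1, a spectrin of the membrane skeleton, rose from 817, 998 and 895 CPM to 1702, 1706 and 1281 CPM (log2 fold change 0.79 ± 0.12 SE), and its 0 h mean was 2016 ± 218 CPM.

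Most core clock genes fell. Of 15 tested, 11 fell (73.3%), 3 rose, and the median was -0.54. PER2 (chr2:238244038-238290102, minus strand), a repressor of CLOCK and BMAL1, measured 64.4, 68.7 and 71.3 CPM at 5 h and 20.5, 21.5 and 22.2 CPM at 12 h (log2 fold change -1.66 ± 0.11 SE, adjusted p = 5.42e-10), and its 0 h mean was 45.8 ± 2.88 CPM. BHLHE40, a repressor that T-cell activation is known to induce, fell from 73.8, 64.6 and 69.7 CPM to 10.7, 13.2 and 12.9 CPM (log2 fold change -2.47 ± 0.13 SE), and is also a member of the immediate-early list. PER1 (log2 fold change -0.71 ± 0.11 SE), CRY1 (log2 fold change -0.54 ± 0.09 SE) and NR1D1 (log2 fold change -0.51 ± 0.12 SE) fell by smaller estimates. BMAL1, the activator, rose from 26.3, 23.7 and 26.6 CPM to 40.3, 32.1 and 38.4 CPM (log2 fold change 0.52 ± 0.12 SE, adjusted p = 0.00244), and its partner CLOCK was not called (log2 fold change 0.11 ± 0.12 SE). The other 2 that rose were RORA and DBP, and DBP lost its call without the 12 h replicate 2.

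Genes of antigen presentation were called higher more often than lower. Of 20 tested MHC class I presentation genes, 9 rose (45%) and 3 fell (15%), against 18.1% and 18% of all genes. The median was 0.22. B2M, the invariant chain, rose by a small estimate (log2 fold change 0.29 ± 0.10 SE, adjusted p = 0.0272) and lost its call without the 5 h replicates 1 or 3. ERAP2, a peptide-trimming aminopeptidase, rose from 192, 192 and 208 CPM to 368, 309.8 and 288 CPM (log2 fold change 0.70 ± 0.10 SE). Of 45 tested interferon-stimulated genes, 15 fell (33.3%) and 8 rose (17.8%), against 18% and 18.1% of all genes. The median was -0.03, and 5 rose without the 5 h replicate 3 or the 12 h replicate 2. IRF1 fell from 401, 444 and 437 CPM to 190.3, 218 and 222 CPM (log2 fold change -1.02 ± 0.09 SE). BST2, an antiviral membrane protein, rose from 19.1, 23.9 and 22.4 CPM to 45.6, 54.4 and 45.5 CPM (log2 fold change 1.16 ± 0.14 SE).

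Of 32 tested regulators of mRNA decay, 11 fell (34.4%) and 6 rose (18.8%, near the 18.1% of all genes), with a median of -0.09, and 7 fell without the 12 h replicate 2. ZFP36L1, which binds AU-rich elements, fell from 675, 644 and 635 CPM to 301, 312 and 355 CPM (log2 fold change -1.01 ± 0.10 SE), above its 0 h mean of 40.4 ± 6.74 CPM. The endonuclease gene ZC3H12A, known as regnase-1, fell (log2 fold change -0.72 ± 0.11 SE). TNRC6B, a scaffold of microRNA silencing, rose from 163, 153 and 152 CPM to 326, 291 and 308 CPM (log2 fold change 0.98 ± 0.09 SE, adjusted p = 3.7e-08).

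The pentamer ATTTA, the basic unit of AU-rich elements, was in the 3′ UTR of 84.7% of the genes that fell and 67.9% of those that rose, against 73.7% of 11944 tested genes with a 3′ UTR. The rarer TATTTAT, which contains the pentamer, was in 43.2% of those that fell, 32.7% of those that rose and 35.5% of all. The median AU content of the 3′ UTR was 61.2% in genes that fell and 52.6% in genes that rose. These general differences depended on libraries. Without the 12 h replicate 2 the pentamer shares were 81.7% and 74.9% and the heptamer shares 40.4% and 39.5%, and with the GC offsets they were 79.4% and 75.3%, and 39.2% and 38.6%. Among genes changed at least 2-fold, TATTTAT was in 45.3% of those that fell and 28.3% of those that rose, in 41.6% and 33.8% without the 12 h replicate 2, and in 43% and 34.1% with the GC offsets. The GC correlations of the libraries are given above. Longer 3′ UTRs have more room for a match, and the median length was 1695.5 bases in genes that fell and 1316 bases in genes that rose. That order turned without the 12 h replicate 2 (1604 and 1651.5 bases) and with the GC offsets (1539 and 1572.5 bases).

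By list, ATTTA was in 88% of 25 tested cytokine genes, 84% of 25 immediate-early genes and 57.1% of 21 NF-κB genes. TATTTAT was in 76% of the cytokine genes, 60% of the immediate-early genes and 28.6% of the NF-κB genes. It was also in 71.9% of the 32 mRNA-decay regulators. Within the immediate-early list, the heptamer was in KLF6, which rose, and in ATF3, FOSB, IER5 and SRF, which were not called. Among the members that fell, NR4A1, EGR1, EGR2 and EGR3 lacked it.

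Of 27 tested genes of quiescence and homing, 7 rose (25.9%) and 5 fell (18.5%), against 18.1% and 18% of all genes. BACH2, a repressor of effector genes, fell from 823, 725 and 771 CPM to 352, 318 and 321 CPM (log2 fold change -1.23 ± 0.09 SE), and its 0 h mean was 51.3 ± 4.82 CPM. SESN3, an inhibitor of mTORC1, rose from 11, 10.1 and 9.56 CPM to 25.4, 19.4 and 26.2 CPM (log2 fold change 1.19 ± 0.17 SE). Of the Notch and T-cell leukaemia genes, 4 of 19 rose and 4 fell (21.1% each), which is near the shares of all genes. NOTCH1 rose from 60.9, 78.8 and 72.7 CPM to 141, 154 and 111 CPM (log2 fold change 0.93 ± 0.12 SE), below its 0 h mean of 338 ± 29.5 CPM. RUNX3 (log2 fold change -0.98 ± 0.10 SE) and RUNX1 (log2 fold change -0.64 ± 0.09 SE) fell.

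In the BCL2 family, 2 of 16 tested genes rose (12.5%) and 4 fell (25%), against 18.1% and 18% of all genes. BMF, a pro-apoptotic member, rose from 6.31, 7.57 and 7.83 CPM to 16.1, 18.5 and 22.2 CPM (log2 fold change 1.40 ± 0.17 SE, adjusted p = 2.74e-06). BCL2A1, an anti-apoptotic NF-κB target, fell from 137, 107 and 94.3 CPM to 50.8, 44.9 and 51.1 CPM (log2 fold change -1.21 ± 0.13 SE). BCL2 rose by a small estimate (log2 fold change 0.43 ± 0.10 SE) and BCL2L11, which encodes BIM, fell (log2 fold change -0.68 ± 0.09 SE). Among 28 tested heat shock genes 8 rose (28.6%) and 5 fell (17.9%), against 18.1% and 18% of all genes. The number that fell was 3 without the 5 h replicates 1 or 3 or the 12 h replicate 2. HSPA1B, an inducible HSP70 with a near-identical copy, rose from 12.8, 13.8 and 15.2 CPM to 28.3, 42.2 and 42.1 CPM (log2 fold change 1.45 ± 0.16 SE).

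Genes of glycolysis and the pentose phosphate pathway were called at shares near those of all genes. There were 5 that rose (16.1%) and 7 that fell (22.6%) among the 31 tested, and the median was 0.004. The number that rose was 3 without the 5 h replicate 1 or the 12 h replicate 2, and 8 without the 12 h replicate 1. LDHA, the lactate dehydrogenase, fell from 714, 686 and 661 CPM to 441, 439.96 and 496 CPM (log2 fold change -0.58 ± 0.09 SE), and the glucose transporter gene SLC2A3 fell (log2 fold change -0.65 ± 0.11 SE). Of 45 nuclear genes of oxidative phosphorylation, 6 rose (13.3%) and 4 fell (8.89%), against 18.1% and 18% of all genes, with 3 that rose without the 5 h replicate 1 or the 12 h replicate 2. Of 7 tested mitochondrially encoded genes 0 were called by edgeR, DESeq2 or limma and 0 had an unadjusted p under 0.05, and their share of counts was 4.46% ± 0.644 (SD, n = 3) at 5 h and 4.71% ± 1.02 at 12 h (two-sided exact permutation p = 0.8). Without the 5 h replicate 3, 1 of them fell, and 2 did without the 12 h replicate 1. Of 28 genes of nucleotide synthesis and one-carbon metabolism, 11 fell (39.3% against 18% of all genes) and 3 rose. The number that rose was 1 without the 5 h replicate 1. PRPS2, which makes the ribose donor PRPP, fell from 138, 128 and 135 CPM to 83.7, 83.8 and 101 CPM (log2 fold change -0.58 ± 0.10 SE).

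**Figure D5:**
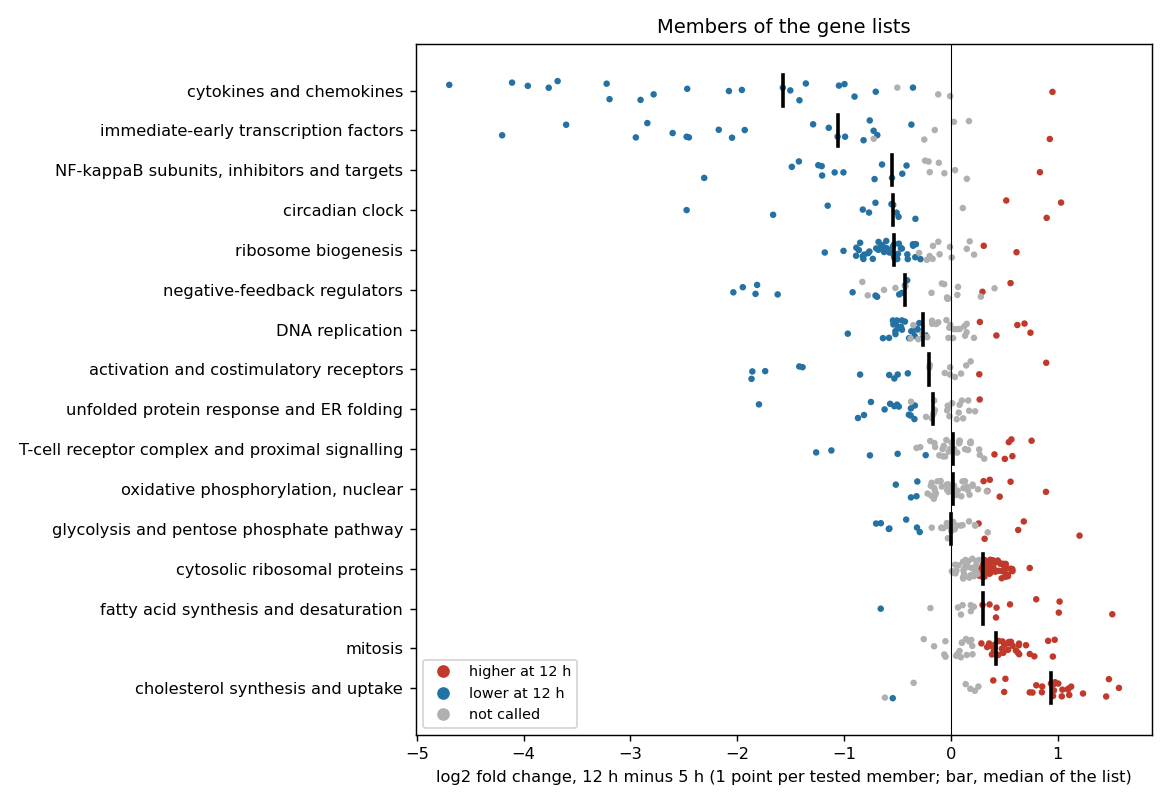
Log2 fold change from 5 h to 12 h (horizontal axis) of the tested members of 16 gene lists (vertical axis), 1 point per member. Colours show genes called higher (red), lower (blue) or not called (grey), and black bars are list medians, from -1.57 for cytokines and chemokines to 0.94 for cholesterol synthesis and uptake.

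Among genes outside the lists, ADRB1, the beta-1 adrenergic receptor, had the largest rise of those with at least 10 CPM in the higher group and groups that did not overlap. It measured 4.36, 6.08 and 5.95 CPM at 5 h and 18.3, 22.4 and 21 CPM at 12 h (log2 fold change 1.92 ± 0.18 SE, adjusted p = 8.62e-08). Its 0 h mean was 5.55 ± 0.0584 CPM. YPEL2 (log2 fold change 1.77 ± 0.25 SE), PCYT2 (values above), ANXA2R (log2 fold change 1.61 ± 0.13 SE), PGPEP1 (log2 fold change 1.49 ± 0.11 SE) and SDCBP2 (log2 fold change 1.48 ± 0.23 SE) followed.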

How the data were processed

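The authors deposited whole-number counts per Ensembl gene for 9 libraries, which look unnormalized. Per the submitters' processing notes, the tools were cutadapt, RSEM and DESeq2 on build GRCh38.p13, and no role, version or order is stated. RSEM estimates counts, so the counts may be rounded estimates. Aligner, annotation and strand use were not given in the sources used here, so overlapping or antisense genes cannot be told apart. The authors' deposited log2 values equal log2 of count divided by a library factor, plus 1, for 12692 genes with counts in all 9 libraries, and served in an alternative only.

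Genes were tested with edgeR 4.0.16 (R 4.3.3): TMM, filterByExpr, a quasi-likelihood fit of the 3 groups with 6 residual degrees of freedom, contrast 12 h minus 5 h, and a 0.05 threshold on the Benjamini-Hochberg adjusted p. The 0 h libraries entered the fit, so all 9 share the estimated spread. The SE is the log2 fold change divided by the square root of F. Errors after CPM means are SDs (n = 3). Symbols matched 19543 of 19569 genes. Coordinates are GENCODE release 29 (GRCh38). Promoters (RefSeq, GRCh38.p14) matched 9775 tested genes. A share of promoters counts a match on either strand. The pentamer ATTTA was the planned 3′ UTR motif, and TATTTAT was added later. Counting error is the only error in the intervals and floors. Replicates of the activated groups differed by a chi-square per degree of freedom of 2.87 to 8.92, so each library counted as 1 replicate. On simulated counts for this comparison (11885 genes), 88% of genes raised 2-fold and 56% of those raised 1.5-fold were called, with 7 false calls among 11685 unchanged genes. The simulation changed only 50 genes per fold and drew each gene independently, without the GC-linked differences between libraries. Its rates therefore need not hold for the real counts.

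Genes named were the 12 with the largest fold change in each direction (called, at least 10 CPM in the higher group, libraries not overlapping), the 5 with the largest difference in CPM, up to 3 called members per list and direction, and CD69, IL2RA, IL2, EGR1, NR4A1, MYC and CDKN1A. Others, such as HMGCS1, INSIG1, CDKN1B, TNF, PCNA, PLK1, MAX, MNT, MXI1, PMVK, MCM4, MCM6, MCM7 and CD247, were chosen after their values were seen. The comparison and its 35 gene lists were chosen with earlier results of these data known. Some genes are not reported here. Alternatives were other normalizations, filters and tests (DESeq2 1.42.0, limma 3.58.1), a replicate block, leaving out each library and, added after seeing the data, GC offsets.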

Additional observations from a re-analysis of the deposited data

How the results depend on the processing

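Under 18 alternatives, the counts of genes that rose (1638 to 2402) and fell (1646 to 2279) stayed within 1.5 times the values reported, and 0 genes were called in opposite directions. The genes behind these counts varied more. Of the 4340 calls reported, 3096 were kept without the 12 h replicate 2, 3224 without the 5 h replicate 1 and 3903 with the GC offsets. The most kept under any alternative was 4318. Leaving out each library in turn gave 1638 to 2262 genes that rose and 1646 to 2176 that fell, and for changes of at least 2-fold 204 to 276 and 250 to 289. Ribosomal proteins called higher ranged from 26 to 60 when a library was left out. Cytokines called lower numbered 10 with limma on the deposited log2 values, which list only genes with counts in all 9 libraries. The named genes gave 4449 values under the alternatives, of which 4291 kept direction and call, 135 lost the call, 11 gained it and 12 changed sign. Those that changed sign were uncalled and near 0. ERO1B was 4e-04 with library totals alone, 0.0229 and 0.0313 without the 5 h replicates 1 and 3, 0.0655 and 0.0625 without the 12 h replicates 2 and 3, and 0.0692 with the GC offsets, with a lowest value of -0.1538 without a library. CD247 was 0.0767 without the 5 h replicate 2 and 0.0257 and 0.025 without the 12 h replicates 1 and 3, with a lowest value of -0.1109. MNT was -0.0937 with the GC offsets and ranged from -0.037 to 0.1716 when a library was left out, below 0 without the 5 h replicate 1 or the 12 h replicate 2. The causes were not tested.

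The replicate block gave 2156 genes that rose and 2129 that fell. Deviations of same-numbered libraries of 5 h and 12 h correlated at 0.163, 0.107 and 0.012, so the numbers were not taken to pair the samples. Depth limits the low genes: 3 counts are 0.327 to 0.732 CPM in an activated library.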
